A study of Mus musculus with 11 samples.

Results

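The regions described here are the positions of wild-type mouse embryonic fibroblasts at which SA1 was called and SA2 was called too, both in wild-type cells and in cells without SA1. They were chosen by the overlap of peaks, as the wild-type SA1 peaks that shared at least 1 bp with a wild-type SA2 peak and at least 1 bp with an SA2 peak of SA1-null cells. Of 26602 wild-type SA1 peaks, 2850 met this rule (10.7%, 95% Wilson interval 10.3 to 11.1%), and they are called members below. The rule used measured lists, so the presence of SA1 and SA2 at the members is a description and not a finding. The rule did not use the SMC1 and SMC3 libraries, though it was set with earlier results of these data known.

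Fibroblasts of E12.5 embryos (strain C57BL/6 x 129 Sv), grown in DMEM with serum, were left untreated, and chromatin was immunoprecipitated with antibodies against SA1, SA2, SMC1 or SMC3 and sequenced. Both genotypes were profiled with each antibody, 1 sample per group. The exception is SA1-null SMC1, with 2 samples and 1 deposited list for both. Both inputs are pools of DNA from the 2 genotypes. The labels do not say how the SA1-null cells were made or whether any embryos or cultures were shared, and lists of intervals hold no marker by which the cell type could be checked.

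Cohesin is a ring that encloses DNA, pairs sister chromatids and extrudes chromatin loops. SMC1 and SMC3 are its long coiled-coil ATPase arms, closed by the kleisin RAD21, and each complex of somatic cells binds either SA1 (gene Stag1) or SA2 (gene Stag2), HEAT-repeat proteins that sit on the kleisin. In mammalian interphase chromatin the complex gathers at sites of the DNA-binding protein CTCF, which halts loop extrusion. A position with SA1 and SA2 in a population of cells may therefore carry one variant in some cells or moments and the other variant in others.

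The lists used as partners held 7741 (SA2, wild type), 6352 (SA2, SA1-null), 24000 (SMC1, wild type), 47003 (SMC1, SA1-null), 15564 (SMC3, wild type) and 34802 (SMC3, SA1-null) peaks. They give a chromosome, a start and an end, with no height or score, and sequencing depth is unknown. A position without a peak may thus be a weak position, and the SA1-null SMC lists are the longer ones. With 1 list per group there is no replicate spread and no test between genotypes. Shares are given with 95% Wilson intervals, which cover the counting of peaks in these lists only, and with the SD over the 19 autosomes, which are parts of the same libraries and not replicates. Control lists touched few members. An input interval lay at 7 members (0.246%, against 0.188% of all SA1 peaks) and an SA1 peak of SA1-null cells at 4.

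The overlap with SA2 was deep at most members. The smaller of the overlaps with the wild-type and the SA1-null SA2 peak had a median of 432 bp, and it reached at least 300 bp at 2637 members (92.5%). Only 4 members had a smaller overlap under 50 bp, from 10 to 44 bp, and 3 of these had a peak in all 4 SMC lists. Just outside the rule, 1 SA1 peak missed an SA2 peak by under 50 bp (32 bp). Members made up 53.2% of the SA1 peaks with SA2 in wild-type cells (2850 of 5353) and 49.5% of those with SA2 in SA1-null cells (2850 of 5759). A single wild-type SA2 peak was present at all but 2 members, and 8 members shared their wild-type SA2 peak with another member.

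SMC1 and SMC3 were each called at most members in both genotypes. In wild-type cells, SMC1 had a peak at 2688 of the 2850 members (94.3%, interval 93.4 to 95.1%; 94.4% ± 2.24, SD over 19 autosomes), against 65.6% of all SA1 peaks. Wild-type SMC3 had one at 2447 (85.9%, interval 84.5 to 87.1%; 85.7% ± 3.38), against 50.1% of all SA1 peaks. In SA1-null cells SMC1 had a peak at 2784 members (97.7%, interval 97.1 to 98.2%; 97.6% ± 1.78), against 80.4% of all SA1 peaks. SA1-null SMC3 had one at 2755 (96.7%, interval 95.9 to 97.3%; 96.6% ± 2.12), against 75.7%. Every one of the 4 lists covered the members more fully than the SA1 peaks at large, and the wild-type SMC3 list, the shortest, left the most members uncovered.

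All 4 SMC lists together covered 2423 members (85.0%, interval 83.7 to 86.3%), against 48.1% of all SA1 peaks. The full set ranged over the autosomes from 75.3% on chromosome 12 (73 of 97 members) to 91.0% on chromosome 10 (151 of 166). Exactly 3 lists covered 260 members (9.12%, against 16.3% of all SA1 peaks), and 244 of these lacked wild-type SMC3 alone (8.56%, against 14.7%). A further 61 members had SMC1 and SMC3 in SA1-null cells and neither in wild-type cells (2.14%, against 9.18%). The reverse, both in wild-type cells and neither in SA1-null cells, was found at 2 members (0.0702%, against 0.0677%). No SMC list had a peak at 45 members (1.58%, interval 1.18 to 2.11%), against 16.3% of all SA1 peaks.

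Within a genotype the 2 ring arms were mostly called together. In wild-type cells 2428 members (85.2%) had both, 260 (9.12%) had SMC1 alone, 19 (0.667%) had SMC3 alone and 143 (5.02%) had neither. Over all SA1 peaks these shares were 48.5%, 17.1%, 1.60% and 32.8%. In SA1-null cells 2741 members (96.2%) had both, 43 (1.51%) had SMC1 alone, 14 (0.491%) had SMC3 alone and 52 (1.82%) had neither, against 73.3%, 7.15%, 2.45% and 17.1% of all SA1 peaks. Members with a single arm thus mostly lacked SMC3, whose list was shorter than that of SMC1 in each genotype.

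The members were compared with the remaining SA1 peaks split by SA2, namely 2909 with SA2 only in SA1-null cells, 2503 with SA2 in wild type only and 18340 with SA2 in neither. In each of the 4 SMC lists the members had the highest share and the SA1 peaks without SA2 the lowest, with the other classes between. For wild-type SMC3 the shares were 85.9% at members, 77.8% (interval 76.3 to 79.3%) with SA2 only in SA1-null cells, 67.9% (interval 66.1 to 69.7%) with SA2 in wild type only and 37.7% (interval 37.0 to 38.4%) with SA2 in neither. For wild-type SMC1 they were 94.3%, 89.7%, 83.2% and 54.9% in that order. The SA1-null lists gave 97.7%, 94.5%, 93.1% and 73.8% for SMC1, and 96.7%, 92.8%, 91.1% and 67.6% for SMC3. The full set of 4 was present at 85.0%, 76.6%, 66.0% and 35.4%.

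**Figure D1:**
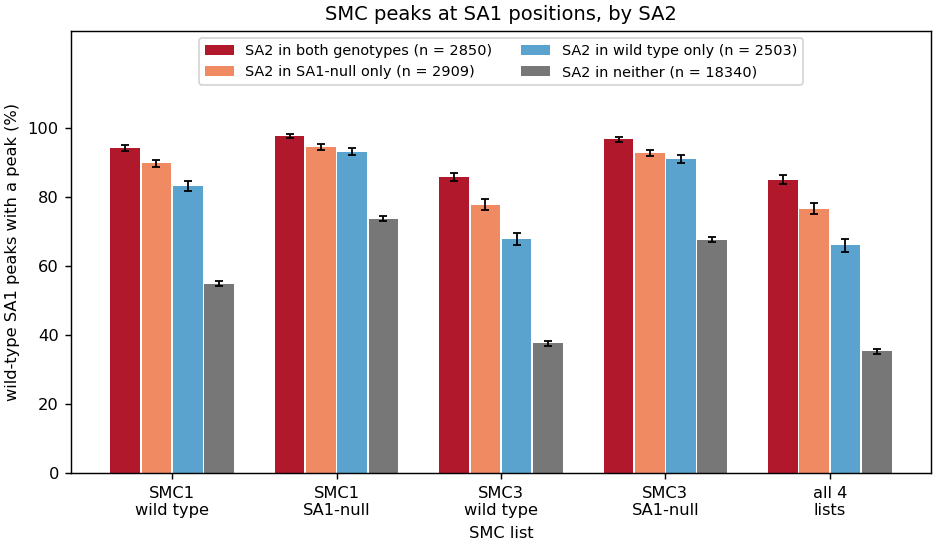
Share of wild-type SA1 peaks (vertical axis, percent) with a peak in each SMC list and in all 4, for the members and the other classes of SA1 peak by SA2; bars are shares and error bars are 95% Wilson intervals over peaks. The members stand highest in every group of bars, from 85.0% for all 4 lists to 97.7% for SA1-null SMC1.

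The order held on most single autosomes. For wild-type SMC3 the members' share was above that of positions with SA2 in wild type only on 19 of 19 autosomes, by 16.9 ± 5.43 percentage points (SD), and above that of positions with SA2 only in SA1-null cells on 18 of 19, by 7.37 ± 4.93 points. For SA1-null SMC3 the differences were 5.52 ± 3.07 points (19 of 19) and 3.70 ± 2.74 points (17 of 19). Against positions without SA2 the members were higher on all 19 autosomes in each list, by 23.6 points (SMC1, SA1-null) to 47.5 points (SMC3, wild type) on average. The shares of the SA2-bearing classes lay close together in SA1-null cells, and with 1 list per group the differences were not tested across cultures.

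SA1 peak width moved with the classes. The members' SA1 peaks had a median width of 642 bp (95% interval of the median 637 to 649), against 622 bp with SA2 only in SA1-null cells, 571 bp with SA2 in wild type only, 498 bp with SA2 in neither and 534 bp over all SA1 peaks. In the widest of 10 equal classes of SA1 width (716 bp and more) lay 746 members, and in the narrowest (up to 361 bp) lay 41. Shares were therefore compared within these classes. In the narrowest class wild-type SMC3 was at 73.2% of members (30 of 41, interval 58.1 to 84.3%) and at 21.8% of positions without SA2. In the widest it was at 93.2% of 746 members and at 53.3% of positions without SA2.

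The members were higher than positions without SA2 in all 10 width classes for each of the 4 lists. With the other classes weighted to the members' widths, wild-type SMC3 was at 79.1% of positions with SA2 only in SA1-null cells, 72.7% with SA2 in wild type only and 47.9% with SA2 in neither, against 85.9% of members. For SA1-null SMC1 the weighted shares were 95.1%, 94.6% and 83.4%, against 97.7%. There the members were lower in 1 width class against SA2 only in SA1-null cells and in 2 against SA2 in wild type only. For SA1-null SMC3 they were lower in the same numbers of classes, 1 and 2, and for wild-type SMC3 in 1 class, against SA2 only in SA1-null cells. For wild-type SMC1 they were higher in all 10 classes against each of the others. Width is not peak height, and the part that height has in these differences was not tested.

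**Figure D2:**
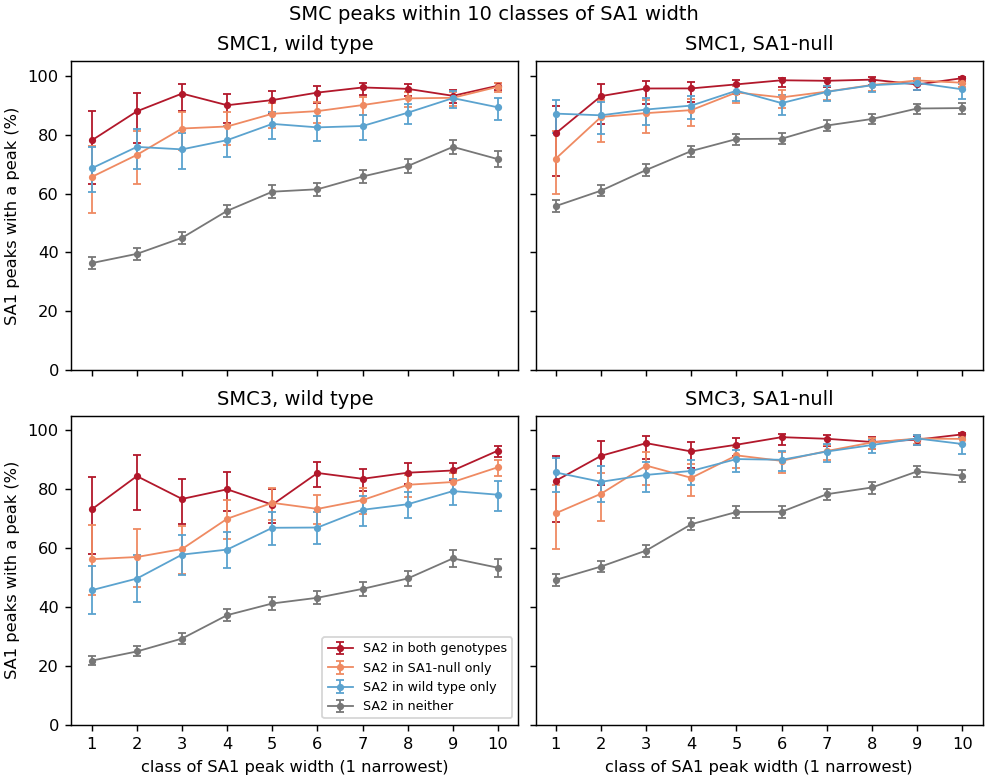
Share of SA1 peaks with an SMC peak (vertical axis, percent) in 10 equal classes of SA1 peak width (horizontal axis, from 1, the narrowest, to 10), 1 panel per SMC list; points are shares and error bars 95% Wilson intervals over peaks. For wild-type SMC3 the members go from 73.2% in class 1 to 93.2% in class 10, and positions without SA2 from 21.8% to 53.3%.

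Over the same members, both ring arms were called more often in the SA1-null lists. The SA1-null SMC1 list joined 2 samples, and each of the other SMC lists came from 1. For SMC1 the share differed by 3.37 percentage points (SA1-null minus wild type), with 106 members called in SA1-null cells alone and 10 in wild-type cells alone. For SMC3 it differed by 10.8 points, with 317 and 9. Of the 2688 members with wild-type SMC1, 2678 had it again in SA1-null cells (99.6%, interval 99.3 to 99.8%), against 98.0% of all SA1 peaks with wild-type SMC1. Of the 2447 with wild-type SMC3, 2438 did (99.6%, interval 99.3 to 99.8%), against 98.9%. The SA1-null call was present at 65.4% (interval 57.8 to 72.3%) of the 162 members without wild-type SMC1, against 46.8% of all such SA1 peaks, and at 78.7% (interval 74.4 to 82.4%) of the 403 without wild-type SMC3, against 52.5%.

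The direction of this genotype difference changed under a width cut that made the lists equally long. With all 4 SMC lists shortened by width to 15564 peaks, the length of the wild-type SMC3 list, the differences turned to -22.6 points for SMC1 (79.9% in wild type, 57.3% in SA1-null cells) and -18.5 points for SMC3 (85.9% and 67.4%). In that comparison the wild-type SMC3 list lost no peak, and length and width cut changed together, so length alone was not tested. With the widest 50% of every list, SA1 and SA2 included, 917 members remained. Over these the direction stayed as deposited, at 6.43 points for SMC1 and 14.9 for SMC3. In that setting the SA1-null SMC lists were still the longer ones, so it does not address length. As deposited, the gap at members was smaller than at other positions. It was 4.78 points for SMC1 and 15.0 for SMC3 with SA2 only in SA1-null cells, 9.95 and 23.2 with SA2 in wild type only, and 18.8 and 30.0 with SA2 in neither. With the lists as deposited, a gap at members could not exceed 5.68 points for SMC1 and 14.1 for SMC3, the shares not yet covered in wild-type cells. The lists do not tell whether more or less cohesin was bound.

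Ring peaks at members were wide for their lists. Wild-type SMC1 peaks at members had a median width of 652 bp (interval 646 to 658), against 579 bp over that whole list, and wild-type SMC3 peaks 612 bp (interval 608 to 619), against 563 bp. In SA1-null cells the medians were 639.5 bp (interval 633 to 646) for SMC1, against 535 bp, and 738 bp (interval 732 to 744) for SMC3, against 652 bp. The order of the classes repeated that of the shares. Wild-type SMC1 peaks, for example, had medians of 635 bp with SA2 only in SA1-null cells, 608.5 bp with SA2 in wild type only and 572 bp with SA2 in neither.

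Members that lacked wild-type SMC3 alone had narrower peaks in the lists that did cover them. At these 244 members the medians were 544.5 bp for wild-type SMC1, 543.5 bp for SA1-null SMC1 and 634.5 bp for SA1-null SMC3, against 663, 657 and 751 bp at the 2423 members with all 4. Their SA1 and SA2 peaks differed less. The SA1 median was 603.5 bp, against 650 bp. The wild-type SA2 median was 480 bp, against 511 bp, and the SA1-null one 512.5 bp, against 547 bp. At the 61 members with ring peaks in SA1-null cells alone those peaks were narrower still, at 485 bp for SMC1 (interval 440 to 522) and 588 bp for SMC3 (interval 552 to 637). These contrasts were not made for SA1 peaks outside the members.

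At the same member, SMC3 peaks were mostly wider in SA1-null than in wild-type cells, while SMC1 peaks had about the same width. The SMC3 difference had a median of 140.5 bp (interval 136 to 147) over 2438 members, with 2146 wider in SA1-null cells (88.0%), against 87.3% of all SA1 peaks with SMC3 in both genotypes. The SMC1 difference had a median of 1.5 bp (interval -4 to 7) over 2678 members, with 1347 wider (50.3%), against 50.1%. Both values were close to those of the other classes, whose medians ran from 136 to 139 bp for SMC3 and from -2 to 2 bp for SMC1. SA2 peaks at the members differed by a median of 33 bp (interval 25 to 39), with 1653 wider in SA1-null cells and 1191 narrower. Over the whole SA2 lists the median width was also larger in SA1-null cells, at 528 bp against 463 bp in wild type. Medians of the paired differences over single autosomes ran from 103 to 177 bp for SMC3, from -26 to 21 bp for SMC1 and from -4.5 to 67 bp for SA2.

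**Figure D3:**
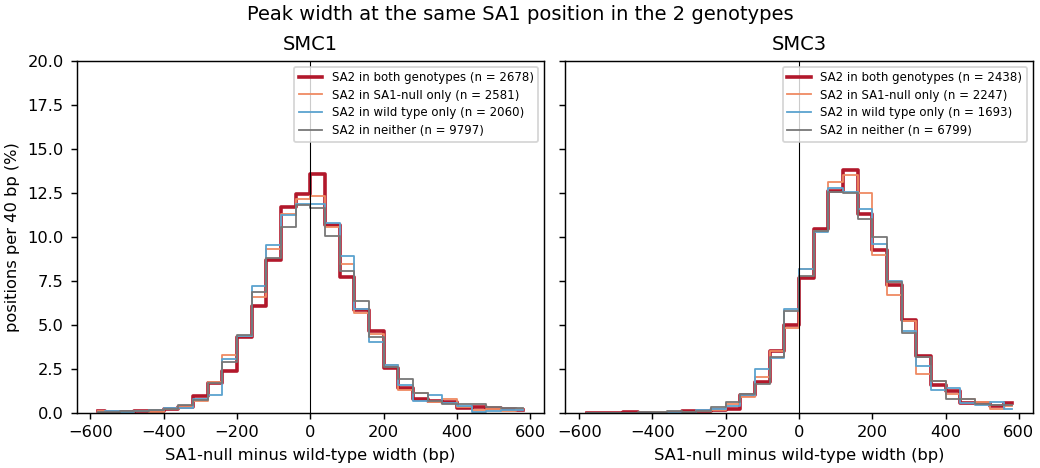
Difference in peak width, SA1-null minus wild type (horizontal axis, bp), at SA1 positions with the antibody's peak in both genotypes, as percent of positions per 40 bp (vertical axis); lines are the classes by SA2, and differences beyond 600 bp are not drawn. The members' SMC1 line is centred near 0 bp (median 1.5) and the SMC3 line near 140 bp (median 140.5), with the other classes alongside.

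The subunits lay on one another at members, as they did at SA1 peaks in general. The centre of the SMC peak was at a median distance of 44.5 bp from the SA1 centre for wild-type SMC1, 47.5 bp for SA1-null SMC1, 42.5 bp for wild-type SMC3 and 44.5 bp for SA1-null SMC3. Within 100 bp of the SA1 centre were 84.4%, 82.9%, 86.1% and 84.2% of these centres in that order, against 83.9%, 80.7%, 86.0% and 81.9% over all SA1 peaks. SA2 centres were at 55.75 bp for the wild-type list and 51 bp for the SA1-null list. Signed distances had medians between -1 and 1.25 bp, so over all members none of the 6 partners stood to one side along the chromosome. Motif orientation was not used here, and a displacement relative to it was not tested.

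Centres also coincided between genotypes. The SA1-null centre lay a median of 42.5 bp from the wild-type centre for SMC1, 40.5 bp for SMC3 and 54.5 bp for SA2. Between the arms within a genotype the distance was 39.5 bp (wild type) and 40 bp (SA1-null). All these centres belong to peaks that overlap the same SA1 peak, which by itself holds them close. The distances between partners were not computed for the other classes, so they do not set the members apart. At 2412 of the 2423 members with all 4 ring peaks, all 7 peaks (SA1, both SA2 and 4 SMC) shared a common stretch. Its median was 384 bp, which was 61.1% of the SA1 width. These positions were picked for overlap of each partner with the SA1 peak, so a common stretch was likely beforehand. No other class has both SA2 peaks to compare. For SA1 and the 4 SMC peaks alone a common stretch was present at 99.8% of these members and at 99.9% of positions with all 4 ring peaks in each other class, so its presence did not set the members apart. It took up a median of 79.7% of the SA1 width at members, and 79.4 to 80.4% in the other classes. From the outermost start to the outermost end, the 7 peaks at members spanned a median of 800 bp. For SA1 and the 4 SMC peaks the span was 795 bp at members and 740 to 787 bp in the other classes. Distances of SMC centres were a little longer at positions without SA2 (46 to 50.5 bp), and positions with SA2 in 1 genotype gave 43 to 49 bp.

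**Figure D4:**
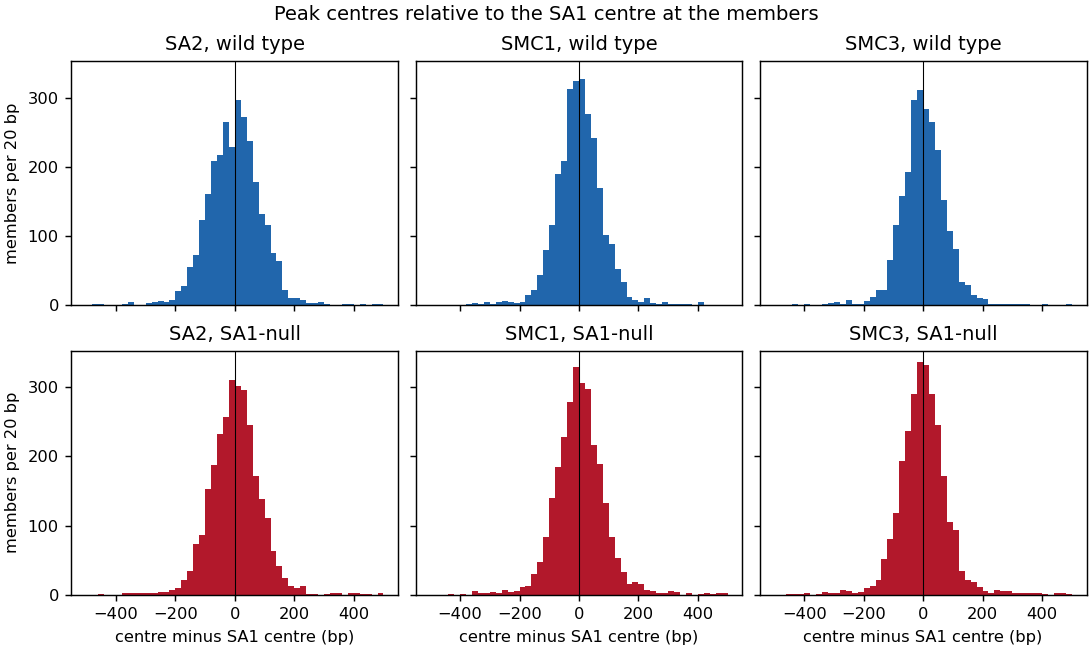
Number of members per 20 bp (vertical axis) by the distance of a partner's peak centre from the SA1 centre (horizontal axis, bp, positive towards higher coordinates), for SA2, SMC1 and SMC3 of wild-type cells (upper row) and SA1-null cells (lower row); distances beyond 500 bp are not drawn. All 6 distributions peak around 0, with median distances of 42.5 to 55.75 bp.

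Members were spread over all chromosomes. On the autosomes they made up 10.9% ± 0.929 (SD, 19 autosomes) of the SA1 peaks, from 9.27% on chromosome 12 (97 of 1046) to 12.8% on chromosome 11 (219 of 1716). Chromosome X stood below this range, with 22 members among 765 SA1 peaks (2.88%). Positions with SA2 only in SA1-null cells were also few on X, with 29 of their 2909. Of the 2503 with SA2 in wild type only 82 lay there, and of the 18340 with SA2 in neither 632. Of the 22 members on X, 20 had wild-type SMC1, against 52.2% of all SA1 peaks on X, and 21 had SA1-null SMC1, against 70.8%. Wild-type SMC3 was at 17, against 31.0%, and SA1-null SMC3 at 20, against 66.3%. All 4 were present at 17, against 28.8% of all SA1 peaks on X. With 22 members a share on X is imprecise, and leaving X out moved none of the values compared here beyond its interval.

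Members followed each other about as often as they followed any SA1 peak. The SA1 peak after a member was itself a member in 321 of 2850 cases (11.3%), and the peak after any SA1 peak was one in 10.7%. The median gap between consecutive members was 423504 bp (25th to 75th percentile 166918 to 983268 bp). The nearest SA1 peak of any class was 16764.5 bp away in the median, against 17068.5 bp for all SA1 peaks. Most members stood alone among the SA1 peaks around them, in 2250 runs of 1, and the longest runs of consecutive SA1 peaks that were all members counted 5. One run lay on chromosome 1, from 135942307 to 136017341, and the other on chromosome 16, from 8869540 to 10089345 (mm9). In each, 4 members had all 4 ring peaks and 1 lacked wild-type SMC3 alone.

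Read from the ring lists, members took up a limited share that was higher among wide peaks than among narrow ones. A member lay at 11.2% of wild-type SMC1 peaks (2692 of 24000), 15.8% of wild-type SMC3 peaks, 5.97% of SA1-null SMC1 peaks and 7.91% of SA1-null SMC3 peaks. Across 10 equal classes of width the share of wild-type SMC3 peaks at members went from 6.29% in the narrowest to 26.1% in the widest. In the other lists the highest share was in the class below the widest. For wild-type SMC1 it went from 2.92% in the narrowest to 21.5% there and 19.8% in the widest. In the SA1-null lists it reached 16.7% for SMC3 and 13.0% for SMC1, and the widest peaks of all (902 bp and more for SMC3, 817 bp and more for SMC1) were at members in 9.59% and 7.89% of cases. These shares were not compared with those at SA1 peaks at large. Ring peaks at all SA1 peaks were wider than their lists too. Their medians were 598 bp for wild-type SMC1 and 572 bp for wild-type SMC3, against 579 and 563 bp over the lists. In SA1-null cells they were 572 bp for SMC1 and 680 bp for SMC3, against 535 and 652 bp.

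The positions below are named by a fixed rule and given in mm9 coordinates. The 5 members with the widest ring peaks, by mean percentile over the 4 SMC lists, were on chromosome 9 from 56353486 to 56354275, chromosome 5 from 152170343 to 152172308, chromosome 9 from 41758032 to 41759761, chromosome 5 from 118781551 to 118782581 and chromosome 8 from 89108779 to 89109476. The first had SMC3 peaks of 1064 bp (wild type) and 2840 bp (SA1-null), and SMC1 peaks of 1635 and 1823 bp. Its SA1 peak was 790 bp wide and its SA2 peaks 620 bp (wild type) and 512 bp (SA1-null), narrower than each of its ring peaks. The fifth had ring peaks of 1093 to 1353 bp and a wide SA2 peak in SA1-null cells, 1142 bp against 446 bp in wild-type cells.

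The largest mean gain in ring width from wild-type to SA1-null cells was at the member on chromosome 5 just named (from 152170343), by 1101 bp for SMC1 and 1558 bp for SMC3. It was followed by chromosome 2 from 126188412 to 126189641 (1101 and 1065 bp) and chromosome 11 from 62734494 to 62735430 (695 and 1467 bp). The largest mean differences in the other direction were smaller. They were at chromosome 4 from 134775472 to 134776050 (-481 bp for SMC1 and -87 bp for SMC3), chromosome 3 from 151499552 to 151500308 (-538 and 9 bp) and chromosome 13 from 52370860 to 52371421 (-251 and -243 bp). These are the ends of a distribution over 2423 members, and with 1 list per group their spread between cultures is unknown.

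The 45 members without any ring peak were not near misses in the main. The nearest SMC peak of any list was 44819 bp away in the median, under 1000 bp at 2 of them and at least 10000 bp at 40. Their SA1 peaks had a median of 560 bp (interval 494 to 639), and their SA2 peaks 476 bp (wild type) and 519 bp (SA1-null). Of the 45, 6 lay in an interval of an input list, as did 1 of the 2805 other members. The distances, widths and input overlaps were not computed for all 4334 SA1 peaks without a ring peak. Whether the 45 differ from those is thus unknown. The 5 with the widest SA1 peaks were on chromosome 6 from 21484024 to 21485176, chromosome 10 from 85141209 to 85141972, chromosome 3 from 7027538 to 7028288, chromosome 1 from 168712102 to 168712829 and chromosome 7 from 77732781 to 77733502. Their SA1 peaks were 722 to 1153 bp wide, their SA2 peaks 308 to 794 bp, and none lay in an input interval or an SA1-null SA1 peak.

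Of the 45, 5 lay within 167 kb of chromosome 9, from 100686836 to 100854185, and no 2 of the other 40 were within 200 kb of each other. This stretch was singled out after the values were seen. It held 14 wild-type SA1 peaks, 11 wild-type SA2 peaks and 9 SA2 peaks of SA1-null cells, but 1 peak each of wild-type SMC1, wild-type SMC3 and SA1-null SMC3 and 2 of SA1-null SMC1. Of the 14 SA1 peaks, 13 had no ring peak. The SA1 list of SA1-null cells, which holds 177 peaks genome-wide, had 7 here, and the input lists had none. The 4 members with an SA1 peak in SA1-null cells were all among the 5. Their SA1 peaks were 281 to 678 bp wide in wild-type cells and 517 to 665 bp in SA1-null cells, and the fifth member, from 100853836 to 100854185, had SA2 peaks of 344 and 512 bp and no SA1-null SA1 peak. The antibody against SA1 thus gave peaks there in cells labelled SA1-null. Stag1, the gene that encodes SA1, is on chromosome 9 in a RefSeq gene table of another build (GRCm38.p6). Whether the stretch lies within it was not tested, since mm9 genes were not used here.

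**Figure D5:**
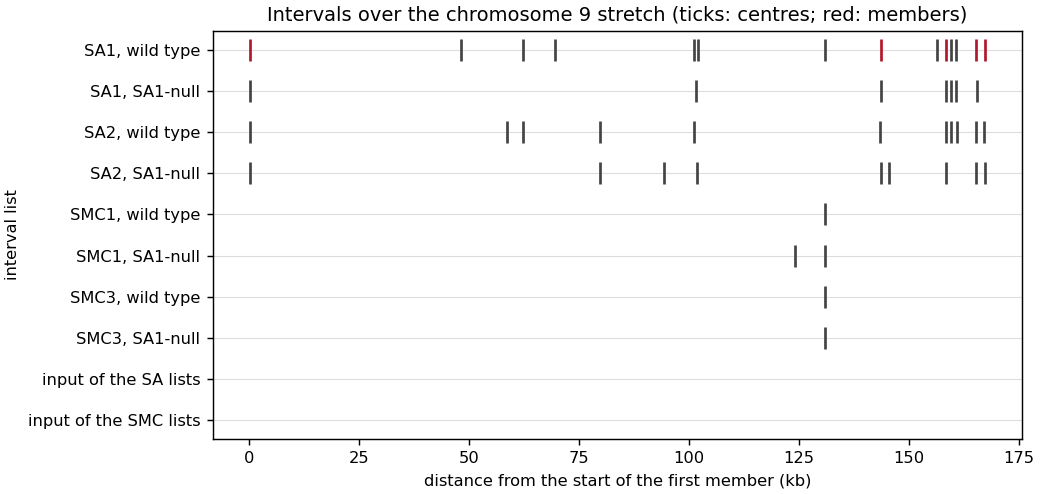
Intervals of each list (rows) along the chromosome 9 stretch, by the distance of their centres from the start of the first member (horizontal axis, kb); ticks are interval centres, and the 5 members are red. SA1 and SA2 rows hold 7 to 14 intervals in both genotypes, the SMC rows 1 or 2, and the input rows none.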

How the data were processed

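Peaks came as 10 lists of intervals deposited by the authors, with columns for chromosome, start and end (3 in all) and no score. Per the submitters' processing notes, CASAVA 1.7 was run and coordinates are mm9. Aligner and peak caller were not given in the sources used here. Deposited names state a false discovery rate of 10 (read as percent), no fold minimum, the input each list was called against (one for wild-type SA1 and both SA2 lists, the other for SA1-null SA1 and all SMC lists), and 2 replicates together for SA1-null SMC1.

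Lists were joined by overlap of at least 1 bp. Where several peaks overlapped a position, the longest overlap was used for widths and centres. Starts are printed 1-based. Intervals of medians come from binomial order statistics (95%). Python 3.11.15, numpy 2.4.6, pandas 2.3.3 and scipy 1.17.1 were used. On simulated data 100% of 3000 planted partners were recovered. Each was placed inside its own SA1 peak, so overlaps at peak edges were not covered by this check. On the deposited lists, counts equalled those of bedtools 2.31.1 for 100 of 100 pairs of lists. The members, classes and alternatives were chosen with earlier results of these data known. Positions were named by a fixed rule, with the exception of the chromosome 9 stretch: the 5 members widest over the SMC lists, the 5 widest without an SMC peak, the 3 with the largest and the 3 with the smallest width difference, and the longest runs. Sequences and gene annotation of mm9 were not used here.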

Additional observations from a re-analysis of the deposited data

Results flagged for a closer look

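In data outside the comparisons, 4 members carried a peak in the SA1 list of SA1-null cells (0.140%, interval 0.0546 to 0.360%), a control that should hold no SA1, against 12 of all 26602 SA1 peaks (0.0451%). All 4 lay in the 167 kb of chromosome 9 described above, where the input lists had no interval. Of the 12, 8 lay in this stretch, so SA1 peaks there that were not members carried such a peak too. The 2 SA1 lists had different inputs, whose part in the result was not tested.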

How the results depend on the processing

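No paired analysis was possible because the labels number replicates only within SA1-null SMC1 and each group has 1 list. The shares, widths and distances stayed within their intervals with an overlap of 50% of the shorter peak and without chromosome X, as did those computed with merging of peaks closer than 1000 bp, with removal of peaks in control lists or with members of exactly 1 peak. The number of members, which has no interval, was 2845 at 50% overlap, 2852 with merging, 2839 with control peaks removed and 2828 without X. In each setting but that of exactly 1 peak, which was run for widths and distances only, the members had the highest share in all 4 SMC lists and positions without SA2 the lowest. Shares below are in the order SMC1 wild type, SMC1 SA1-null, SMC3 wild type, SMC3 SA1-null. With the widest 50% of every list there were 917 members, with shares of 77.0, 83.4, 67.1 and 82.0%, all 4 lists at 51.8%, and genotype differences of 6.43 (SMC1) and 14.9 points (SMC3). The other classes gave 63.1, 72.6, 50.9 and 68.7% (SA2 in wild type only), 69.9, 78.1, 60.8 and 74.0% (SA2 only in SA1-null cells) and 42.4, 55.3, 29.9 and 51.3% (neither). With SMC lists of equal length the SMC1 and SA1-null SMC3 shares fell, since these lists lost peaks, to 79.9, 57.3 and 67.4% at members (all 4 at 43.8%), 61.2, 41.2 and 50.7% (wild type only), 71.4, 48.8 and 59.5% (SA1-null only) and 34.9, 24.1 and 30.1% (neither). The genotype differences at members then reversed, to -22.6 points for SMC1 and -18.5 points for SMC3. Width stood in for a score, and it differs between genotypes for SMC3, so neither order of the genotypes is firm. For the wider 50% of SA1 peaks (median 534 bp) the shares were 95.3, 98.4, 87.9 and 97.5% at members (all 4 at 87.1%; SMC3 difference 9.52 points), 87.0, 95.1, 74.6 and 94.2% (wild type only), 92.5, 96.5, 81.4 and 95.2% (SA1-null only) and 68.0, 84.3, 49.0 and 79.6% (neither). For the narrower ones they were 90.4, 94.8, 77.4 and 93.4% at members (all 4 at 76.5%; differences 4.46 and 16.04 points), 77.3, 90.1, 57.7 and 86.4% (wild type only), 81.4, 88.5, 67.0 and 85.5% (SA1-null only) and 46.4, 66.8, 30.3 and 59.8% (neither). Depth is unknown, so a position without a peak may not be read as one without the protein.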
